A study of Mus musculus with 16 samples.

Results

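The genes described here are 8 genes of cholesterol synthesis and its control, Srebf2, Insig1, Hmgcs1, Mvd, Idi1, Fdft1, Sqle and Lss, measured by RNA sequencing in mouse aortas. They were chosen by gene symbol and matched 8 of the 54532 genes in the deposited tables, each by a single row. None of the 8 encodes a lipoprotein receptor, and the genes of cholesterol uptake are therefore given beside them as other genes of the pathway. Each of the 8 genes passed the filter on low counts in every comparison.

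The mice were male C57BL/6J, operated on at 12 weeks of age, and 1 library was made from the whole aorta of each of 16 mice, 4 in each group. In 5/6 Nx (5/6 nephrectomy, a model of chronic kidney disease) the poles of the left kidney were tied off and the right kidney was removed a week later, and Sham mice went through the procedure with their kidneys left in place. After 2 weeks of recovery, the food of Sham and 5/6 Nx-HPi-Lp mice held 2.5% protein with 2% phosphorus. That of 5/6 Nx-HPi-Hp mice held 18% protein with the same 2% phosphorus, and that of 5/6 Nx-LPi-Lp mice 2.5% protein with 0.3% phosphorus. The labels give 30 days of diet and the methods of the study 4 weeks. No genetic change was used. The Sham mice received the diet of 5/6 Nx-HPi-Lp only, so 5/6 Nx and diet cannot be told apart where 5/6 Nx-HPi-Hp or 5/6 Nx-LPi-Lp mice are compared with Sham mice.

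Cells make cholesterol from acetyl-CoA through mevalonate, isoprenoids, squalene and lanosterol. The pathway is governed by SREBP transcription factors, which are held in the endoplasmic reticulum by INSIG proteins when sterols are abundant and are cut and released to the nucleus when sterols fall, where they raise the genes of the synthesis enzymes. In the artery wall, smooth muscle cells, macrophages and the fat around the vessel all make and take up cholesterol.

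The libraries held 13659525 to 57276915 counts. Mitochondrially encoded genes took 4.18% to 6.34% of the counts in Sham libraries and 9.50% to 29.0% in the 5/6 Nx libraries. Smooth muscle, endothelial, fibroblast and macrophage markers were all detected. The 8 smooth muscle markers summed to 21963 to 26082 CPM (counts scaled to library size by the TMM method) in Sham, 2268 to 5134 CPM in 5/6 Nx-HPi-Lp, 6680 to 23531 CPM in 5/6 Nx-HPi-Hp and 7783 to 17999 CPM in 5/6 Nx-LPi-Lp libraries. The 5/6 Nx-HPi-Hp replicate 4 stood apart from its group: its smooth muscle sum was 23531 CPM against 6680 to 11231 CPM in replicates 1 to 3, and its sum of 8 white adipocyte markers was 1747 CPM against 4690 to 13356 CPM. For the 8 genes, calls that rest on this library are given with and without it. Values of other genes in 5/6 Nx-HPi-Hp against Sham are given with it only. In whole aortas, fewer cells of a type and less RNA per cell cannot be told apart.

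RefSeq windows from 250 bases before to 50 bases after the transcription start (GRCm38.p6) were found for 6 of the 8 genes, Srebf2, Insig1, Hmgcs1, Mvd, Idi1 and Lss. Letters of 3 motifs were searched on both strands: TCACNCCAC, a form of the sterol regulatory element, CCAAT, the core bound by NF-Y, and GGGCGG, the GC box bound by Sp1. The sterol element letters occurred in the window of Hmgcs1, 137 bases before the start, and in 1.24% of all 32851 mouse windows. CCAAT was found in 6 of 6 windows against 37.4% of all windows, and GGGCGG in 6 of 6 against 35.7%. These are matches of letters and not measured binding sites. The stretches just before the start of 4 enzyme genes are shown because a CCAAT match lay closest to the start in these, with CCAAT or its reverse complement and the sterol element letters in capitals.
Hmgcs1 (chr13:119690201-119690350, plus strand): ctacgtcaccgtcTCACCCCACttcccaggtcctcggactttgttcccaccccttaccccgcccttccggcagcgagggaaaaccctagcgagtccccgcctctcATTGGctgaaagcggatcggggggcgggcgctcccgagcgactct
Idi1 (chr13:8885526-8885605, plus strand): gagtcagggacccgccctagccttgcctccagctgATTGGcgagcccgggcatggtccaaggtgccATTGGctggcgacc
Mvd (chr8:122443423-122443502, minus strand): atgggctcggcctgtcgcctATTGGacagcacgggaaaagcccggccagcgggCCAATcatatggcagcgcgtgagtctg
Lss (chr10:76531525-76531604, plus strand): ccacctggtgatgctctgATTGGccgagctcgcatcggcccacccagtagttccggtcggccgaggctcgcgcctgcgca
Within these stretches, a CCAAT match began 45 bases before the start in Hmgcs1, 45 and 14 bases before it in Idi1, 60 and 27 bases before it in Mvd and 62 bases before it in Lss. Hmgcs1 held further matches outside the stretch shown, 237 and 176 bases before the start and 10 bases after it. In Srebf2 and Insig1 the match lay farther out, at 135 and 216 bases.

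Per unit of transcript length, the 8 genes covered a wide range in Sham aortas. On the FPKM scale (fragments scaled to gene length and library size), Srebf2 stood at 20.7 ± 1.04 (SD, n = 4) and Insig1 at 18.5 ± 4.76, followed by Fdft1 at 11.1 ± 2.97 and Hmgcs1 at 9.45 ± 0.961. Mvd (4.41 ± 0.918), Sqle (3.40 ± 0.658), Lss (1.96 ± 0.119) and Idi1 (1.21 ± 0.440) were lower. The order was different in 5/6 Nx-LPi-Lp aortas, where Insig1 was highest at 78.3 ± 41.3 FPKM, Fdft1 stood at 30.3 ± 14.0 and Srebf2 at 15.5 ± 1.79.

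Mvd, Hmgcs1 and Fdft1 were higher, and Srebf2 lower, in both low-protein 5/6 Nx groups than in Sham mice. These changes were not all confined to low protein. In 5/6 Nx-HPi-Hp, Fdft1 was higher too (log2 fold change 0.97, edgeR adjusted p = 0.0365) and Srebf2 stood at -0.45 (adjusted p = 0.0795). In 5/6 Nx-HPi-Lp against Sham aortas, 4 of the 8 genes rose (Mvd, Hmgcs1, Sqle, Fdft1), 1 fell (Srebf2) and 3 did not pass the test (Idi1, Insig1, Lss), at an adjusted p of at most 0.05 from the quasi-likelihood test of edgeR (Benjamini-Hochberg adjustment over all genes). Of all 16513 genes tested, 22.7% were higher and 20.2% lower. The median log2 fold change of the 8 genes was 0.79 and that of all genes -0.0027. With a 2-fold change required as well, which 22.2% of all genes met, 2 of the 8 remained, Hmgcs1 and Mvd.

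In 5/6 Nx-LPi-Lp against Sham aortas, 5 genes rose (Insig1, Fdft1, Mvd, Lss, Hmgcs1), Srebf2 fell and Sqle and Idi1 did not pass. Here 17.3% of 16071 genes were higher, 14.5% lower and 10.9% past the 2-fold rule too, which 4 of the 8 met. The median of the 8 genes was 1.15 and that of all genes 0.020. In 5/6 Nx-HPi-Hp against Sham aortas, Fdft1 alone of the 8 rose and 7 did not pass, where 17.5% of 15882 genes were higher, 13.9% lower and 12.2% past the 2-fold rule, and the median of the 8 was 0.070. Without the library that stood apart, 4 of the 8 passed against Sham: Srebf2 and Sqle were lower, at log2 fold changes of -0.67 (edgeR adjusted p = 0.00147) and -1.02 (adjusted p = 0.00219), and Insig1 and Fdft1 higher, at 0.78 (adjusted p = 0.0245) and 1.18 (adjusted p = 0.00336). The share of all genes called in that fit was not counted, so the count of 4 has no background beside it.

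Between the 5/6 Nx groups, 3 enzymes passed the test between diets of unlike protein content and Insig1 between diets of unlike phosphorus content. Of the 3, the call of Hmgcs1 failed without each of 7 of the 8 libraries, and that of Sqle without each of 3. At equal phosphorus and lower protein, in 5/6 Nx-HPi-Lp against 5/6 Nx-HPi-Hp aortas, Hmgcs1, Mvd and Sqle were higher and 5 genes did not pass, with 7.09% of 16198 genes higher, 5.95% lower and 8.12% past the 2-fold rule, which Mvd and Sqle met. At equal protein and higher phosphorus, in 5/6 Nx-HPi-Lp against 5/6 Nx-LPi-Lp aortas, Insig1 was lower and 7 genes did not pass, with 11.1% of 16253 genes higher, 8.96% lower and 11.9% past the 2-fold rule, which Insig1 met. As a count, 1 of the 8 genes lower was near the share of all genes. The 3 comparisons with Sham share its 4 libraries, and the 3 comparisons of 5/6 Nx-HPi-Lp share theirs, so they are not independent of each other. Between 5/6 Nx-HPi-Hp aortas and those of 5/6 Nx-LPi-Lp mice, 0 of the 8 genes passed. In that comparison edgeR called 0% of 15850 genes, with 1420 at an unadjusted p under 0.05, while DESeq2 called 86 and limma 0. The log2 fold changes of all 8 genes were below 0 there, with a median of -0.87 against -0.00080 for all genes, and that of Srebf2 was -0.036. Several of the 8 genes varied together within groups, so these are not 8 separate observations. In 5/6 Nx-HPi-Hp against 5/6 Nx-LPi-Lp, Mvd was the only one of the 8 whose libraries did not overlap, and the share of all genes without overlap was not counted.

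**Figure D1:**
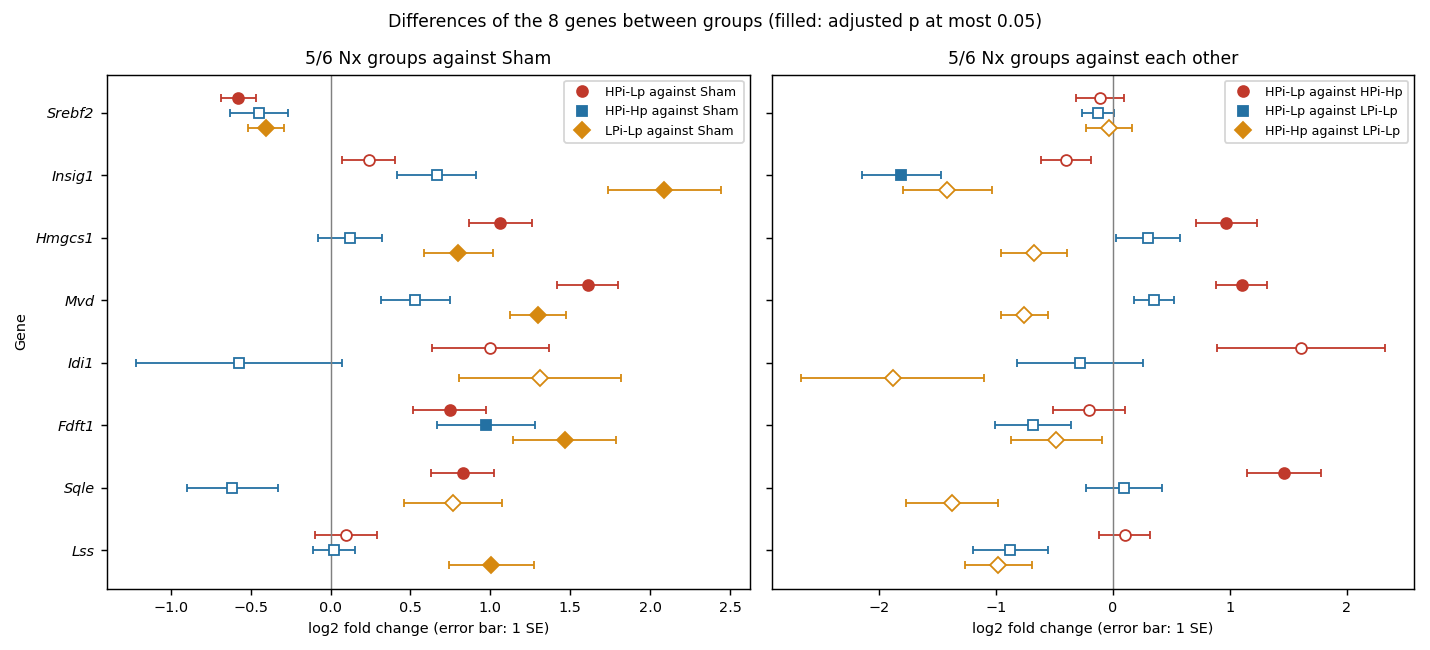
Log2 fold change (x axis) of each of the 8 genes (y axis) in the 6 comparisons of groups, with 1 SE as error bar and filled symbols for an adjusted p of at most 0.05 by edgeR. Against Sham (left), Mvd, Hmgcs1 and Fdft1 are filled on the right of 0 for both low-protein 5/6 Nx groups and Srebf2 is filled on the left, and among the 5/6 Nx groups (right) Insig1 is filled at -1.81 for 5/6 Nx-HPi-Lp against 5/6 Nx-LPi-Lp. Fdft1 is also filled on the right of 0 for 5/6 Nx-HPi-Hp against Sham.

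Srebf2 encodes SREBP2, the transcription factor that drives the genes of cholesterol synthesis. Its levels in Sham libraries were 153, 167, 152 and 148 CPM. They were 108, 84.0, 111 and 97.8 CPM in 5/6 Nx-HPi-Lp, 97.9, 91.1, 87.7 and 158 CPM in 5/6 Nx-HPi-Hp, and 95.5, 103, 112 and 129.5 CPM in 5/6 Nx-LPi-Lp libraries. All 5/6 Nx libraries lay below every Sham library except 5/6 Nx-HPi-Hp replicate 4. Srebf2 fell by 0.58 on the log2 scale (SE 0.11, edgeR adjusted p = 0.00238) in 5/6 Nx-HPi-Lp and by 0.40 (SE 0.11, adjusted p = 0.0209) in 5/6 Nx-LPi-Lp against Sham, and the groups did not overlap in either comparison. In 5/6 Nx-HPi-Hp the change was -0.45 (SE 0.18, adjusted p = 0.0795). The fall in 5/6 Nx-HPi-Lp passed the test without any single library and under all 10 other settings, and that in 5/6 Nx-LPi-Lp failed it without Sham replicate 2 (adjusted p = 0.0640), with the 16 libraries in one fit (adjusted p = 0.0705) and with the replicate block (adjusted p = 0.0569). The value in 5/6 Nx-HPi-Hp moved past the test with total-count scaling (adjusted p = 0.0498) and with the 16 libraries in one fit (adjusted p = 0.0363). Among the 5/6 Nx groups the means were 100.2 to 110.0 CPM, with no difference past the test.

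Insig1 encodes an endoplasmic reticulum protein that retains the SREBP complex. Sham libraries held 47.4, 62.5, 80.8 and 48.5 CPM and 5/6 Nx-HPi-Lp libraries 65.4, 71.4, 74.0 and 61.0 CPM. The levels were 89.0, 70.9, 130.5 and 68.8 CPM in 5/6 Nx-HPi-Hp and 387, 129.7, 294 and 144 CPM in 5/6 Nx-LPi-Lp libraries. Every 5/6 Nx-LPi-Lp library lay above all Sham and all 5/6 Nx-HPi-Lp libraries, and replicates 1 and 3 stood far above replicates 2 and 4 of their own group. Insig1 was 4.25-fold higher in 5/6 Nx-LPi-Lp than in Sham aortas (log2 fold change 2.09, SE 0.35, edgeR adjusted p = 0.00372) and 0.285-fold as high in 5/6 Nx-HPi-Lp as in 5/6 Nx-LPi-Lp aortas (log2 fold change -1.81, SE 0.34, adjusted p = 0.00784). Both calls held without any single library, at adjusted p values of up to 0.0170 and 0.0290, and under the 10 other settings. Against 5/6 Nx-HPi-Hp the 5/6 Nx-LPi-Lp libraries overlapped, with a log2 fold change of -1.42 for 5/6 Nx-HPi-Hp (SE 0.38, adjusted p = 0.492 by edgeR and 0.0289 by DESeq2).

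**Figure D2:**
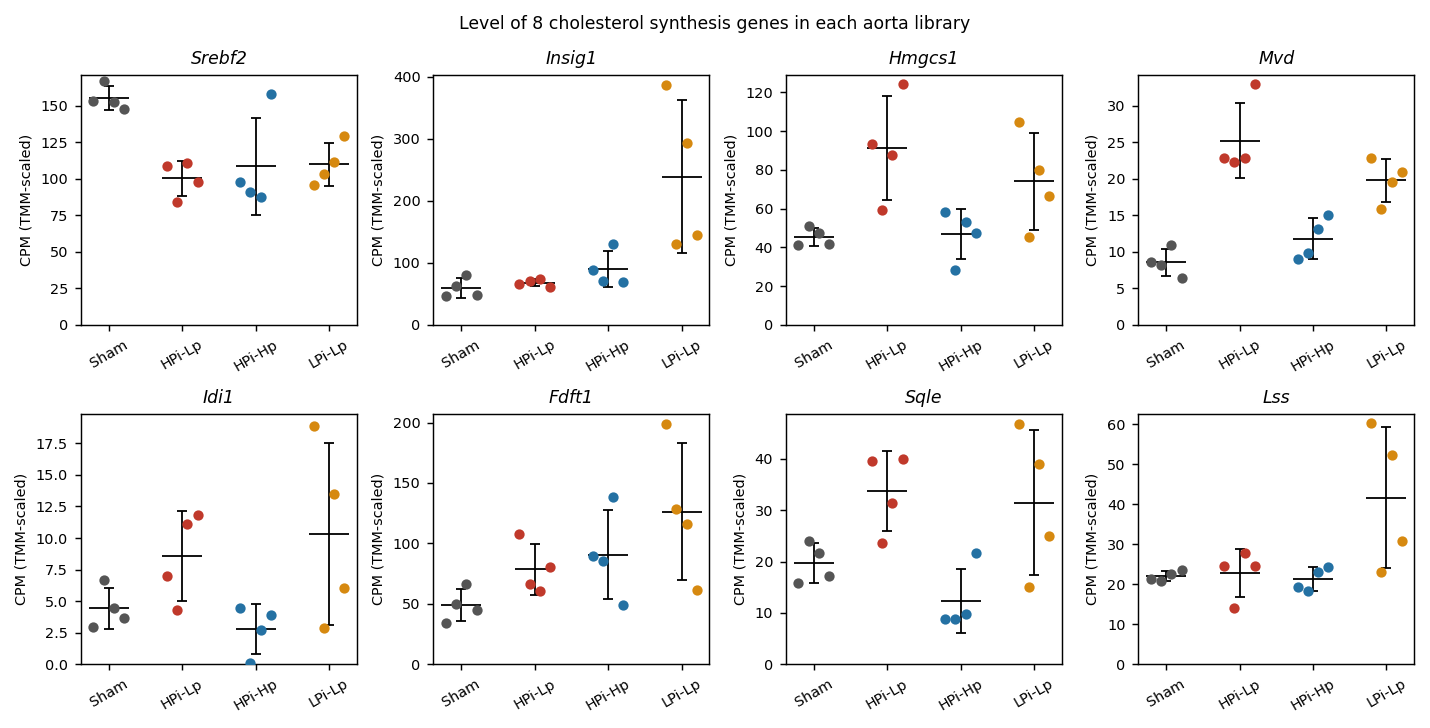
Level in CPM (TMM-scaled, y axis from 0) of each of the 8 genes in the 4 libraries of each group (x axis), with 1 point per mouse, the group mean as a line and the SD as error bar. Insig1 and Lss have their highest points in 5/6 Nx-LPi-Lp replicates 1 and 3, and Mvd separates the low-protein 5/6 Nx groups from Sham without overlap.

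Hmgcs1 encodes the cytosolic HMG-CoA synthase, an early step of the pathway to mevalonate. Its levels were 41.3, 51.1, 47.2 and 41.6 CPM in Sham and 93.6, 59.4, 87.8 and 124 CPM in 5/6 Nx-HPi-Lp libraries. They were 58.4, 28.6, 53.0 and 47.3 CPM in 5/6 Nx-HPi-Hp and 105, 45.1, 80.1 and 66.7 CPM in 5/6 Nx-LPi-Lp libraries. Every 5/6 Nx-HPi-Lp library lay above all Sham and all 5/6 Nx-HPi-Hp libraries, while 5/6 Nx-LPi-Lp replicate 2 fell inside the Sham range. The rise against Sham was 2.09-fold in 5/6 Nx-HPi-Lp (log2 fold change 1.06, SE 0.20, edgeR adjusted p = 0.00207) and 1.74-fold in 5/6 Nx-LPi-Lp (0.80, SE 0.21, adjusted p = 0.0198). Against 5/6 Nx-HPi-Hp, 5/6 Nx-HPi-Lp was 1.96-fold higher (0.97, SE 0.26, adjusted p = 0.0384), and this call failed without each of 7 of the 8 libraries (adjusted p from 0.0298 to 0.113 over all 8), 5/6 Nx-HPi-Lp replicate 2 being the exception. It also failed with total-count scaling (adjusted p = 0.0511), limma on log2(FPKM + 1) (adjusted p = 0.0506) and the replicate block (adjusted p = 0.0546). The call of 5/6 Nx-LPi-Lp against Sham failed without Sham replicate 1 or 4 or 5/6 Nx-LPi-Lp replicate 3 (adjusted p of up to 0.0586), with total-count scaling (adjusted p = 0.0545) and with the replicate block (adjusted p = 0.0550).

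Mvd encodes mevalonate diphosphate decarboxylase, which forms isopentenyl diphosphate. It had the smallest adjusted p of the 8 genes in both comparisons of a low-protein 5/6 Nx group with Sham. Sham libraries held 8.67, 8.22, 10.9 and 6.48 CPM, and 5/6 Nx-HPi-Lp libraries 22.8, 22.3, 22.8 and 33.0 CPM. The levels were 9.09, 9.88, 13.2 and 15.0 CPM in 5/6 Nx-HPi-Hp and 22.8, 15.8, 19.6 and 20.9 CPM in 5/6 Nx-LPi-Lp libraries. The low-protein 5/6 Nx libraries all lay above every Sham and every 5/6 Nx-HPi-Hp library. Mvd was 3.05-fold higher in 5/6 Nx-HPi-Lp than in Sham (log2 fold change 1.61, SE 0.19, edgeR adjusted p = 0.000187), 2.46-fold higher in 5/6 Nx-LPi-Lp than in Sham (1.30, SE 0.17, adjusted p = 0.00292) and 2.14-fold higher in 5/6 Nx-HPi-Lp than in 5/6 Nx-HPi-Hp (1.10, SE 0.22, adjusted p = 0.0137). These 3 calls held without any single library and under the 10 other settings, with adjusted p values of up to 0.0481. Between the low-protein 5/6 Nx groups the log2 fold change was 0.35 (SE 0.17, adjusted p = 0.176).

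Idi1 encodes isopentenyl-diphosphate isomerase and was the lowest of the 8 genes, with 1 to 504 counts in a library. Its close relative Idi2 had 2 counts in all 16 libraries. The levels were 2.97, 6.69, 4.42 and 3.64 CPM in Sham, 6.998, 4.26, 11.1 and 11.8 CPM in 5/6 Nx-HPi-Lp, 4.46, 0.0817, 2.70 and 3.94 CPM in 5/6 Nx-HPi-Hp and 18.9, 2.89, 13.5 and 6.05 CPM in 5/6 Nx-LPi-Lp libraries. The lowest value is a single count in 5/6 Nx-HPi-Hp replicate 2, a library with 350 counts of Hmgcs1. All groups overlapped. The log2 fold change against Sham was 1.00 (SE 0.37, edgeR adjusted p = 0.0504) in 5/6 Nx-HPi-Lp and 1.31 (SE 0.51, adjusted p = 0.0740) in 5/6 Nx-LPi-Lp. The value in 5/6 Nx-HPi-Lp moved past the test with RLE scaling (adjusted p = 0.0475), DESeq2 (adjusted p = 0.0229), a minimum of 10 counts per library (adjusted p = 0.0422) and mitochondrially encoded genes left out (adjusted p = 0.0483). It also did so without Sham replicate 2 or 5/6 Nx-HPi-Lp replicate 1 or 2 (adjusted p of 0.0361, 0.0459 and 0.0101). That in 5/6 Nx-LPi-Lp did so with DESeq2 (adjusted p = 0.0256), without the count filter (adjusted p = 0.0490) and without its replicate 2 (1.61, adjusted p = 0.0172).

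Fdft1 encodes squalene synthase, the enzyme that commits isoprenoids to sterols. On chromosome 14 it overlaps Ctsb on the other strand over 774 of its 4227 exon bases (18.3%), and the strand setting of the counting is not stated, so its level is uncertain. Ctsb held 428556 counts over the 16 libraries and did not pass the test in any of the 6 comparisons (edgeR adjusted p of 0.122 to 0.616). Fdft1 stood at 34.4, 49.6, 66.1 and 44.99 CPM in Sham and 108, 66.1, 60.6 and 80.05 CPM in 5/6 Nx-HPi-Lp libraries. It stood at 89.8, 85.2, 139 and 48.7 CPM in 5/6 Nx-HPi-Hp and 199, 128, 116 and 61.2 CPM in 5/6 Nx-LPi-Lp libraries. Sham replicate 3 overlapped each of the 5/6 Nx groups. Fdft1 was higher than in Sham in all 3 5/6 Nx groups, by 1.68-fold in 5/6 Nx-HPi-Lp (log2 fold change 0.74, SE 0.23, edgeR adjusted p = 0.0243), 1.96-fold in 5/6 Nx-HPi-Hp (0.97, SE 0.31, adjusted p = 0.0365) and 2.76-fold in 5/6 Nx-LPi-Lp (1.46, SE 0.32, adjusted p = 0.00938). The last held without any single library. The call in 5/6 Nx-HPi-Lp failed without Sham replicate 1, 2 or 4 (adjusted p of up to 0.0715), with total-count scaling (adjusted p = 0.0537), with the 16 libraries in one fit (adjusted p = 0.0866) and with the replicate block (adjusted p = 0.0685). That in 5/6 Nx-HPi-Hp failed without each of 6 of the 8 libraries, Sham replicate 3 and 5/6 Nx-HPi-Hp replicate 4 being the exceptions (adjusted p of up to 0.0998), with total-count scaling (adjusted p = 0.0660) and with limma at either pseudocount (adjusted p of 0.0616 and 0.0628).

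Sqle encodes squalene epoxidase, a rate-limiting step after squalene. Its levels were 15.8, 24.1, 21.7 and 17.2 CPM in Sham and 39.7, 23.6, 31.4 and 40.1 CPM in 5/6 Nx-HPi-Lp libraries. They were 8.82, 8.82, 9.82 and 21.6 CPM in 5/6 Nx-HPi-Hp and 46.7, 15.1, 39.0 and 25.0 CPM in 5/6 Nx-LPi-Lp libraries. The 5/6 Nx-HPi-Lp libraries lay above all 5/6 Nx-HPi-Hp libraries, and 5/6 Nx-HPi-Hp replicates 1 to 3 below every other library of the study. Sqle was 1.77-fold higher in 5/6 Nx-HPi-Lp than in Sham (log2 fold change 0.83, SE 0.20, edgeR adjusted p = 0.00793), a call that held without any single library. It was 2.76-fold higher in 5/6 Nx-HPi-Lp than in 5/6 Nx-HPi-Hp (1.46, SE 0.31, adjusted p = 0.0181). Without the 5/6 Nx-HPi-Hp library that stood apart this difference was 1.87 (adjusted p = 0.00561), and it failed the test without 5/6 Nx-HPi-Lp replicate 4 or 5/6 Nx-HPi-Hp replicate 2 or 3 (adjusted p of up to 0.0629). In 5/6 Nx-LPi-Lp against Sham the log2 fold change was 0.77 (SE 0.30, adjusted p = 0.0799), and 0.99 (adjusted p = 0.0137) without 5/6 Nx-LPi-Lp replicate 2.

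Lss encodes lanosterol synthase, which closes the sterol rings. Sham libraries held 21.3, 20.9, 22.5 and 23.6 CPM and 5/6 Nx-HPi-Lp libraries 24.6, 14.0, 27.7 and 24.6 CPM. The levels were 19.4, 18.3, 23.1 and 24.4 CPM in 5/6 Nx-HPi-Hp and 60.3, 23.0, 52.4 and 30.9 CPM in 5/6 Nx-LPi-Lp libraries. As for Insig1, 5/6 Nx-LPi-Lp replicates 1 and 3 were the 2 highest libraries, and replicate 2 fell inside the Sham range. Lss was 2.01-fold higher in 5/6 Nx-LPi-Lp than in Sham (log2 fold change 1.01, SE 0.26, edgeR adjusted p = 0.0180), and the call failed without Sham replicate 1 or 2 or 5/6 Nx-LPi-Lp replicate 3 (adjusted p of up to 0.0557) and with limma on log2(FPKM + 1) (adjusted p = 0.0509). Its change in 5/6 Nx-HPi-Lp against 5/6 Nx-LPi-Lp was -0.88 (SE 0.32, adjusted p = 0.0805), and past the test with DESeq2 (adjusted p = 0.0353), the 16 libraries in one fit (adjusted p = 0.0216), the replicate block (adjusted p = 0.0432) and without 5/6 Nx-LPi-Lp replicate 2 (-1.10, adjusted p = 0.0367). The changes against Sham were 0.09 (SE 0.19, adjusted p = 0.723) in 5/6 Nx-HPi-Lp and 0.02 (SE 0.13, adjusted p = 0.922) in 5/6 Nx-HPi-Hp, and their sign flipped with total-count scaling.

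The other genes of the synthesis pathway were read beside the 8. Of the 7 genes of the mevalonate arm reported here, 3 of them described above, 4 rose and 0 fell in 5/6 Nx-HPi-Lp, 6 rose and 0 fell in 5/6 Nx-LPi-Lp and 2 rose and 0 fell in 5/6 Nx-HPi-Hp against Sham. Of the 12 genes from squalene to cholesterol, Fdft1, Sqle and Lss among them, 8 rose in 5/6 Nx-HPi-Lp, 8 in 5/6 Nx-LPi-Lp and 3 in 5/6 Nx-HPi-Hp, and none of the 12 fell. These counts include Fdft1 and Sqle in 5/6 Nx-HPi-Lp, Fdft1 and Lss in 5/6 Nx-LPi-Lp and Fdft1 in 5/6 Nx-HPi-Hp, all described above. Of all genes tested, 22.7%, 17.3% and 17.5% were higher in these comparisons.

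**Figure D3:**
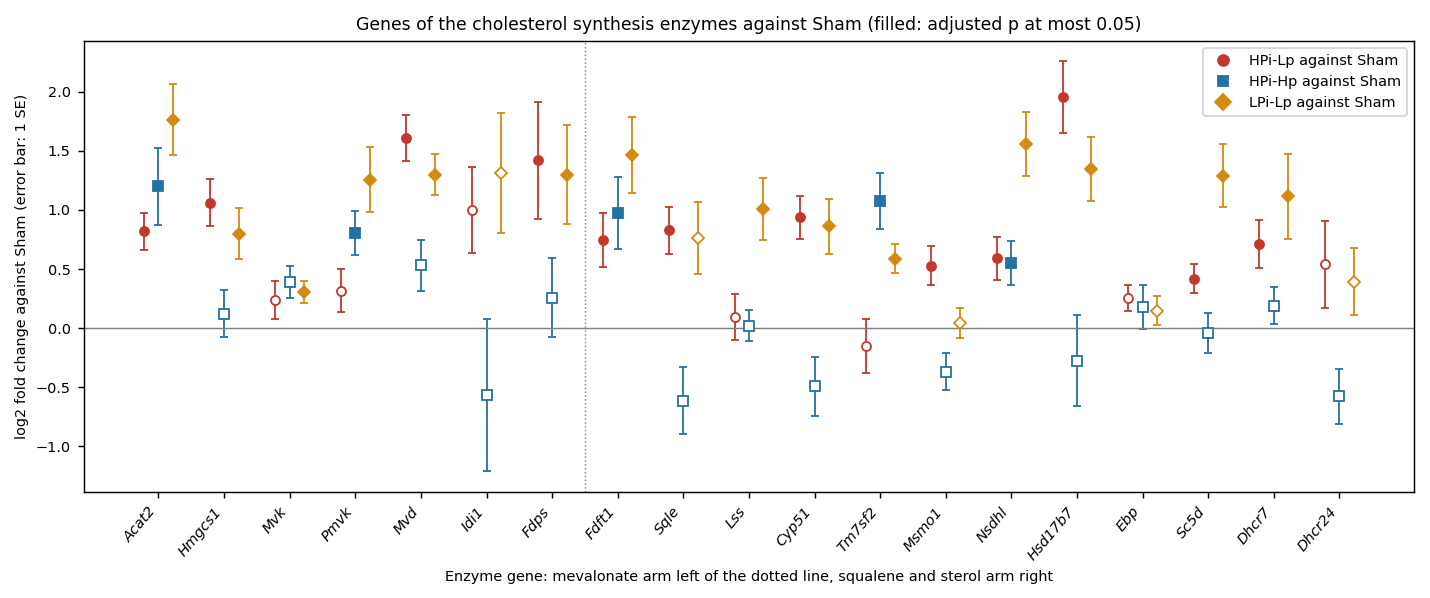
Log2 fold change against Sham (y axis) with 1 SE for genes of the cholesterol synthesis enzymes in pathway order (x axis), one symbol per 5/6 Nx group, filled at an adjusted p of at most 0.05 by edgeR. Of the 7 genes of the mevalonate arm, left of the dotted line, the points are filled for 4 in 5/6 Nx-HPi-Lp, 6 in 5/6 Nx-LPi-Lp and 2 in 5/6 Nx-HPi-Hp.

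Acat2, which makes acetoacetyl-CoA at the start of the pathway, was higher than in Sham in 5/6 Nx-HPi-Lp (0.82 on the log2 scale, edgeR adjusted p = 0.00253) and 5/6 Nx-LPi-Lp (1.77, adjusted p = 0.00371), as it was in 5/6 Nx-HPi-Hp (1.20, adjusted p = 0.0226). Fdps, the farnesyl diphosphate synthase, was counted at 0.743 to 4.92 CPM only. It rose in both low-protein 5/6 Nx groups against Sham (1.42, adjusted p = 0.0416, and 1.30, adjusted p = 0.0387), and the former call failed when any of 6 of the 8 libraries was left out, 5/6 Nx-HPi-Lp replicates 2 and 4 being the exceptions (adjusted p of up to 0.113). Hsd17b7, Cyp51, Dhcr7 and Sc5d, of the steps after lanosterol, rose in both low-protein 5/6 Nx groups against Sham. Hsd17b7 changed most among them, by 1.96 (adjusted p = 0.00075) in 5/6 Nx-HPi-Lp and 1.35 (adjusted p = 0.00664) in 5/6 Nx-LPi-Lp against Sham. Hsd17b7 (2.26, adjusted p = 0.0128) and Cyp51 (1.46, adjusted p = 0.00722) were also higher in 5/6 Nx-HPi-Lp than in 5/6 Nx-HPi-Hp, together with Sqle, Hmgcs1 and Mvd. Tm7sf2, a sterol reductase of the steps after lanosterol, was lower there (-1.21, adjusted p = 0.0288), without overlap of the libraries. It was higher than in Sham in 5/6 Nx-HPi-Hp (1.08, adjusted p = 0.0122) and in 5/6 Nx-LPi-Lp (0.59, adjusted p = 0.00753), and stood at -0.15 (adjusted p = 0.627) in 5/6 Nx-HPi-Lp.

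Of the 7 genes of SREBP control, Srebf2 and Insig1 among them, 1 rose and 3 fell in 5/6 Nx-HPi-Lp against Sham, beside 22.7% and 20.2% of all genes. Mbtps1, the site-1 protease that cuts SREBPs, fell by 0.66 on the log2 scale (edgeR adjusted p = 0.000653) and Insig2 by 0.55 (adjusted p = 0.0107) beside Srebf2. Srebf1, which drives fatty acid synthesis for the most part, rose by 0.74 (adjusted p = 0.00204). Srebf2, Mbtps1 and Insig2 were also lower, and Insig1 and Srebf1 higher, in 5/6 Nx-LPi-Lp than in Sham. Mbtps1 and Insig2 were lower than in Sham in 5/6 Nx-HPi-Hp as well (-0.55, adjusted p = 0.0173, and -0.80, adjusted p = 0.00956), and neither differed past the test among the 5/6 Nx groups.

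The receptors and carriers of cholesterol uptake differed among themselves: of 9 tested, 5 rose and 1 fell in 5/6 Nx-HPi-Lp against Sham, beside 22.7% and 20.2% of all genes. Vldlr, a receptor for triglyceride-rich lipoproteins, was lower in 5/6 Nx-HPi-Lp than in the 3 other groups (-1.42, -0.93 and -1.44 against Sham, then 5/6 Nx-HPi-Hp, then 5/6 Nx-LPi-Lp, largest adjusted p = 0.00441). Scarb1, the HDL receptor, rose by 2.51 (adjusted p = 1.71e-05) and Stard4, a carrier of cholesterol within the cell, by 1.39 (adjusted p = 0.00168) in 5/6 Nx-HPi-Lp against Sham. Npc2, which moves cholesterol out of lysosomes, rose by 0.97 (adjusted p = 0.00197). Scarb1 also rose in 5/6 Nx-HPi-Hp (1.71, adjusted p = 0.00899) and 5/6 Nx-LPi-Lp (1.45, adjusted p = 0.00344), and Npc2 in 5/6 Nx-LPi-Lp (0.69, adjusted p = 0.0124). Stard4 was also higher in 5/6 Nx-HPi-Lp than in 5/6 Nx-HPi-Hp (1.62, edgeR adjusted p = 0.0117) and 5/6 Nx-LPi-Lp (1.06, adjusted p = 0.0201). Scarb1 was higher than in 5/6 Nx-LPi-Lp (1.10, adjusted p = 0.0180) and did not pass against 5/6 Nx-HPi-Hp (0.83, adjusted p = 0.0733), and Npc2 passed against neither.

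Of the 10 genes of cholesterol efflux, esterification and LXR, 6 were higher and 0 lower in 5/6 Nx-HPi-Lp than in Sham. Apoe, the apolipoprotein of macrophages and other cells, ranged from 559 to 706 CPM in Sham and 2148 to 3553 CPM in 5/6 Nx-HPi-Lp libraries (log2 fold change 2.14, edgeR adjusted p = 3.36e-05). Abca1, which exports cholesterol, rose by 1.45 (adjusted p = 0.000384), Ch25h, which makes 25-hydroxycholesterol and held 16 to 30 counts in Sham libraries, by 3.35 (adjusted p = 0.000265) and Nr1h3, the LXR alpha receptor, by 1.28 (adjusted p = 4.85e-05). Nr1h3 also rose in 5/6 Nx-HPi-Hp (1.32, adjusted p = 0.01004) and 5/6 Nx-LPi-Lp (1.29, adjusted p = 0.00258), with no difference past the test among the 5/6 Nx groups. Apoe was higher than in Sham in 5/6 Nx-HPi-Hp too (1.03, adjusted p = 0.0190), and Abca1 in 5/6 Nx-LPi-Lp (0.68, adjusted p = 0.0405). Apoe (2.06, adjusted p = 0.00145) and Ch25h (2.65, adjusted p = 0.0193) were also higher in 5/6 Nx-HPi-Lp than in 5/6 Nx-LPi-Lp and Abca1 did not pass (0.81, adjusted p = 0.0809), while of the 8 synthesis genes Insig1 alone differed. Against 5/6 Nx-HPi-Hp, Apoe (1.13, edgeR adjusted p = 0.0405), Ch25h (2.66, adjusted p = 0.00633) and Abca1 (1.23, adjusted p = 0.0262) were all higher in 5/6 Nx-HPi-Lp. Over the 37 pathway genes other than the 8, 20 rose and 3 fell in 5/6 Nx-HPi-Lp against Sham, 11 were higher and 4 lower against 5/6 Nx-HPi-Hp, and 8 were higher and 4 lower against 5/6 Nx-LPi-Lp. The shares of all genes higher and lower were 22.7% and 20.2%, 7.09% and 5.95%, and 11.1% and 8.96%, in that order.

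Within groups, Hmgcs1, Idi1, Sqle and Lss varied together from mouse to mouse, and Srebf2 and Fdft1 less so. Deviations of log2(CPM + 1) from the group mean, over 16 libraries, correlated with Pearson's r above 0.5 in 13 of 28 pairs of genes, which share the library and its scaling. The share of such pairs among all genes was not counted. The highest r was 0.924, between Hmgcs1 and Idi1, and the 6 pairs of Hmgcs1, Idi1, Sqle and Lss all had an r of at least 0.680. Fdft1 had an r of 0.0358 to 0.326 with the 5 other enzyme genes and of 0.666 with Insig1. Fdft1 and Srebf2 went apart, with the lowest r of -0.638, and Srebf2 and Insig1 had an r of -0.368. The other 26 pairs were above 0. In 5/6 Nx-LPi-Lp, replicate 1 was the highest library of its group for 7 of the 8 genes and replicate 2 the lowest for 6. Replicate 2 of 5/6 Nx-HPi-Lp was the lowest for 6 of the 8. In 5/6 Nx-HPi-Hp, replicate 2 was the lowest for Hmgcs1, Sqle, Idi1 and Lss.

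**Figure D4:**
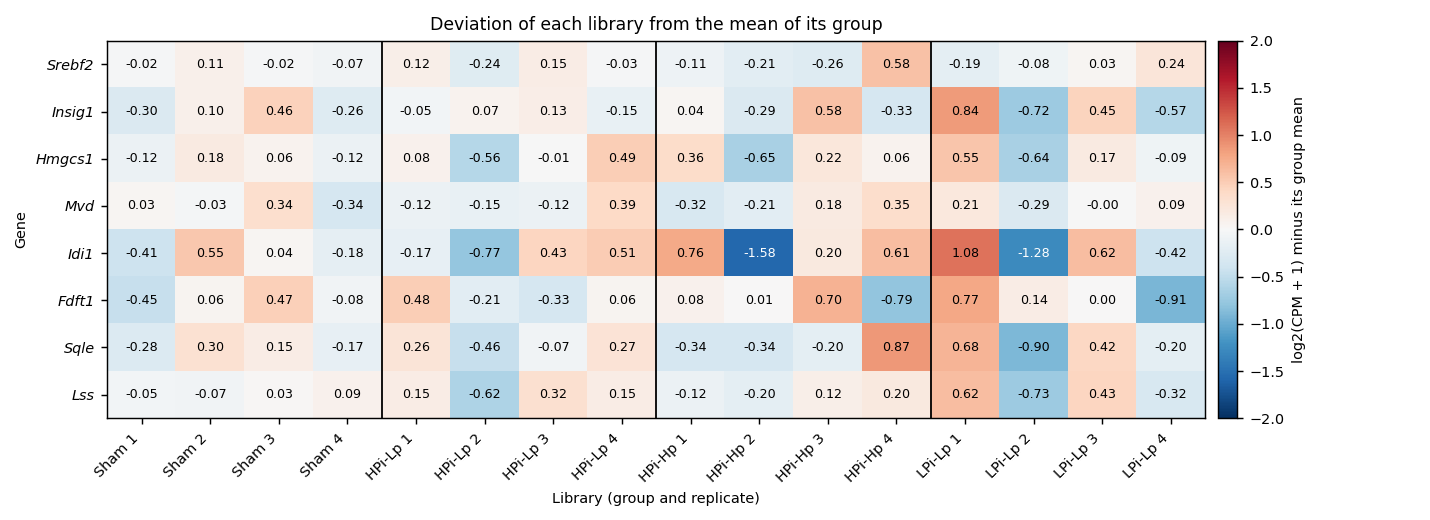
Log2(CPM + 1) of each of the 8 genes (rows) minus its group mean, in each of the 16 libraries (columns), printed in the cells and coloured red above and blue below the mean. In 5/6 Nx-LPi-Lp, replicate 1 is above the mean for every gene but Srebf2 (Idi1 1.08, Insig1 0.84) and replicate 2 below it for every gene but Fdft1 (Idi1 -1.28, Sqle -0.90).

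Of 14991 genes, those whose deviations were most like the mean deviation of the 8 genes were Zfp982 (r = 0.918), Mblac2 (r = 0.912), D5Ertd579e (r = 0.909) and Arhgap5 (r = 0.907), over 16 libraries. Hmgcs1, Idi1 and Sqle stood at ranks 5, 6 and 8, with Etnk1 (r = 0.888) between them, and these 3 are part of the mean they are compared with. Lss stood at rank 11 and Cyp51, outside the 8, at rank 17 with r = 0.854, while Fdft1 (r = 0.347) and Srebf2 (r = 0.257) stood at ranks 2829 and 4121.

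Markers of other cell types moved with the groups and with some of these libraries. For the counts of markers that rose against Sham, the shares of all genes higher were 22.7% in 5/6 Nx-HPi-Lp, 17.5% in 5/6 Nx-HPi-Hp and 17.3% in 5/6 Nx-LPi-Lp. The 8 white adipocyte markers summed to 699 to 1798 CPM in Sham, 6318 to 12762 CPM in 5/6 Nx-HPi-Lp, 1747 to 13356 CPM in 5/6 Nx-HPi-Hp and 3588 to 9609 CPM in 5/6 Nx-LPi-Lp libraries, and 7 of 8 rose in 5/6 Nx-HPi-Lp and 8 of 8 in the other 5/6 Nx groups against Sham. The 6 brown adipocyte markers summed to 335 to 670 CPM in Sham, 573 to 1939 CPM in 5/6 Nx-HPi-Lp, 740 to 2393 CPM in 5/6 Nx-HPi-Hp and 1223 to 4557 CPM in 5/6 Nx-LPi-Lp libraries. In 5/6 Nx-LPi-Lp the brown adipocyte sums were 4557, 1223, 2836 and 2674 CPM in replicates 1 to 4, so that replicates 1 and 2, the highest and lowest for most of the 8 genes, were also the highest and lowest here. The 8 macrophage markers summed to 129 to 165 CPM in Sham and 413 to 1129 CPM in 5/6 Nx-HPi-Lp libraries, with 8 of 8 higher, as were 7 of 8 in 5/6 Nx-HPi-Hp and 1 of 8 in 5/6 Nx-LPi-Lp. The 8 fibroblast markers summed to 1966 to 3107 CPM in Sham, 3022 to 12406 CPM in 5/6 Nx-HPi-Lp, 1120 to 3014 CPM in 5/6 Nx-HPi-Hp and 1246 to 1666 CPM in 5/6 Nx-LPi-Lp libraries, and 3 of 8 rose in 5/6 Nx-HPi-Lp against Sham. The 6 markers of dividing cells summed to 41.8 to 52.2 CPM in Sham, 43.7 to 161 CPM in 5/6 Nx-HPi-Lp, 32.4 to 40.1 CPM in 5/6 Nx-HPi-Hp and 31.4 to 36.7 CPM in 5/6 Nx-LPi-Lp libraries, and 5 of 6 rose in 5/6 Nx-HPi-Lp against Sham. In 5/6 Nx-HPi-Lp both sums were highest in replicate 2, the lowest library of its group for 6 of the 8 genes. The 8 sympathetic neuron markers in 5/6 Nx-HPi-Lp summed to 1153, 39.2, 224 and 934 CPM in replicates 1 to 4, against 11.2 to 14.0 CPM in Sham. The 6 adrenal medulla markers, of which Th and Dbh are also on the sympathetic neuron list, summed to 1.22 to 3.32 CPM in Sham, 5.93 to 456 CPM in 5/6 Nx-HPi-Lp, 15.7 to 83.5 CPM in 5/6 Nx-HPi-Hp and 4.02 to 54.1 CPM in 5/6 Nx-LPi-Lp libraries. The 8 markers of the adrenal cortex, a tissue that makes much cholesterol, summed to 4.70 to 7.12 CPM in Sham and 8.61 to 18.2 CPM in 5/6 Nx-HPi-Lp libraries without overlap, to 6.60 to 13.6 CPM in 5/6 Nx-HPi-Hp and to 6.12 to 8.47 CPM in 5/6 Nx-LPi-Lp libraries, with Cyp11b1 and Cyp11b2 at 0 counts in all 16. The part of these cell types in the differences of the 8 genes was not tested. Among 6 liver markers the sums were 0.481 to 112 CPM.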

How the data were processed

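RNA from the aortas of 16 mice was sequenced as 1 library per mouse, so the spread between replicates is that between mice. Per the study's methods, the authors used HISAT2 with the mm10 genome and featureCounts (1.5.0-p3) for counts of genes. The deposited counts are whole numbers without normalization, and the deposited FPKM were scaled by the authors to gene length and to a total per library that they adjusted between libraries. Strand and multiple-match settings are not given in the sources used here.

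The main test of the counts was that of edgeR 4.0.16 in R 4.3.3 (filterByExpr, TMM scaling, quasi-likelihood test, Benjamini-Hochberg adjustment over all genes tested) with 1 fit per pair of groups (8 libraries). The threshold was an adjusted p of 0.05, and the 2-fold rule asked as well for a log2 fold change of 1 or more in size. CPM were scaled by TMM over 16 libraries. Of the 6 comparisons, 3 are those of the study. The tests were repeated with DESeq2 1.42.0, with limma 3.58.1 on log2(FPKM + 1) or log2(FPKM + 0.1) where the mean FPKM exceeded 0.5, with RLE or total-count scaling, without the filter, with a minimum of 10 counts per library, with a single fit of the 16 libraries, with the replicate number as a block, without mitochondrially encoded genes and without each library in turn. The scripts were tested on simulated counts with 200 changed genes, set up like 5/6 Nx-HPi-Lp against Sham. There edgeR recovered 50% of log2 changes of 1 and 84% of those of 2, with 6 false calls. DESeq2 recovered 69% and 93%, with 62 false calls. In the data the main test called 7089 genes in that comparison, so these rates need not hold there or in the other comparisons. A gene that did not pass the main test may still differ, by an amount that the simulation does not give. The 8 genes and the lists of pathway and marker genes were chosen with earlier results of these data known. The genes named were the 8, up to 4 other genes per pathway list by smallest adjusted p in the study's 3 comparisons, and the 8 genes most alike in their deviations from group means. Ctsb, Idi2, Tm7sf2, Th, Dbh, Cyp11b1 and Cyp11b2 were named outside this rule, after their values were seen. Of the pathway lists, 3 genes are not reported here. No pair of libraries of a group was a copy (lowest chi-square per gene 21.95). Promoter windows came from RefSeq (GRCm38.p6). Figures were drawn with matplotlib 3.10.9 in Python 3.11.15.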

Additional observations from a re-analysis of the deposited data

Results flagged for a closer look

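A library was marked where it lay far from the other 3 of its group, measured as its gap to the nearest divided by the range of the group. Of 100 groups of 4 libraries checked, over 25 genes, 7 were marked, and chance alone marks about 1 in 20.

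Of these, 2 concern 5/6 Nx-HPi-Hp replicate 4, the library that stood apart by its smooth muscle and white adipocyte markers. Srebf2 was 158 CPM there against 87.7 to 97.9 CPM in the others, and Sqle 21.6 against 8.82 to 9.82 CPM. In 5/6 Nx-HPi-Lp replicate 4, Mvd was 33.0 CPM against 22.3 to 22.8 CPM. The other 4 lay in Sham libraries. Fdps was 0.743 CPM in replicate 2 against 1.07 to 1.08 CPM, and Scarb1 was 21.7 CPM in replicate 3 against 15.6 to 16.4 CPM. In replicate 4, Stard4 was 8.34 CPM against 9.02 to 9.13 CPM, and Npc2 was 151 CPM against 174 to 178 CPM.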

How the results depend on the processing

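Of the log2 fold changes of the genes named, 1610 values under an alternative kept their direction and side of the threshold, 42 moved past it, 75 no longer passed it and 47 changed sign. With the 2-fold rule, 2 of the 8 genes remained in 5/6 Nx-HPi-Lp against Sham and 0 in 5/6 Nx-HPi-Hp against Sham. DESeq2, all 16 libraries in one fit and the replicate block each gave 2 genes in 5/6 Nx-HPi-Lp against 5/6 Nx-LPi-Lp and 2 in 5/6 Nx-HPi-Hp against Sham, and limma gave 0 in the latter with either pseudocount. Over all genes, DESeq2, the single fit and the block called 4423 of 30691, 4378 of 17443 and 1720 of 16253 in the former. In the latter they called 6224 of 30609, 5210 of 17443 and 3062 of 15882, and limma 4349 or 4404 of 14720. DESeq2 gave 1 (Insig1) in 5/6 Nx-HPi-Hp against 5/6 Nx-LPi-Lp. With single libraries left out, the counts ranged from 1 to 3 against 5/6 Nx-HPi-Hp and from 1 to 2 against 5/6 Nx-LPi-Lp in 5/6 Nx-HPi-Lp, and from 0 to 4 in 5/6 Nx-HPi-Hp against Sham. The shares of all genes called in the fits without a library were not counted. The median of the 8 genes was 0.11 in 5/6 Nx-HPi-Lp against 5/6 Nx-HPi-Hp with at least 10 counts in every library, which dropped Idi1, and 0.69 in 5/6 Nx-LPi-Lp against Sham with limma on log2(FPKM + 1). The cause was not tested. Over all groups, deviations of same-numbered libraries correlated with a median r of -0.030 (5 of 24 pairs over 0.1). A median over all groups cannot show whether mice of some groups were paired by number. In 5/6 Nx-HPi-Hp against 5/6 Nx-LPi-Lp, same-numbered libraries had an r of 0.207, 0.177, -0.073 and 0.567 for replicates 1 to 4. A differently numbered pair, replicate 3 of the former with replicate 1 of the latter, reached 0.563. With the replicate block, 4 of the 8 genes passed in 5/6 Nx-HPi-Lp and 4 in 5/6 Nx-LPi-Lp against Sham, 2 in 5/6 Nx-HPi-Lp against 5/6 Nx-HPi-Hp and 0 in 5/6 Nx-HPi-Hp against 5/6 Nx-LPi-Lp, where it called 10 genes in all. In the comparisons named before that one, the block called 6183 of 16513, 3600 of 16071 and 384 of 16198 genes, in that order. Total-count scaling moved the median log2 fold change of all genes against Sham by -0.14 in 5/6 Nx-HPi-Lp, -0.21 in 5/6 Nx-HPi-Hp and -0.24 in 5/6 Nx-LPi-Lp. The sign changed for Lss (-0.0452 with total-count scaling) in 5/6 Nx-HPi-Lp against Sham. The sign changed for Nr1h3 (0.0444 with total-count scaling, 0.0559 with limma on log2(FPKM + 1), 0.0626 with limma on log2(FPKM + 0.1), 0.0597 with replicate block, 0.00382 with mitochondrially encoded genes left out) in 5/6 Nx-HPi-Lp against 5/6 Nx-HPi-Hp. The sign changed for Insig2 (0.000183 with RLE scaling, 0.0583 with total-count scaling, 0.00265 with at least 10 counts in every library, 0.0109 with all 16 libraries in one fit, 0.0497 with mitochondrially encoded genes left out) in 5/6 Nx-HPi-Lp against 5/6 Nx-LPi-Lp. The sign changed for Hmgcs1 (-0.0780 with total-count scaling) and Lss (-0.19 with total-count scaling, -0.0418 with no count filter) in 5/6 Nx-HPi-Hp against Sham. The sign changed for Srebf2 (0.00316 with total-count scaling) in 5/6 Nx-HPi-Hp against 5/6 Nx-LPi-Lp. With single libraries left out, values crossed 0 in 5/6 Nx-HPi-Lp against Sham (Lss -0.00522 to 0.28), in 5/6 Nx-HPi-Lp against 5/6 Nx-HPi-Hp (Lss -0.0244 to 0.28, Nr1h3 -0.23 to 0.18, Srebf1 -0.0555 to 0.32, Fdft1 -0.42 to 0.0746, Acat2 -0.57 to 0.00591, Srebf2 -0.21 to 0.11, Mbtps1 -0.17 to 0.00876), in 5/6 Nx-HPi-Lp against 5/6 Nx-LPi-Lp (Fdps -0.34 to 0.55, Insig2 -0.10 to 0.0988, Idi1 -0.61 to 0.18, Dhcr7 -0.64 to 0.0730, Srebf1 -0.26 to 0.10, Sqle -0.15 to 0.34, Cyp51 -0.0518 to 0.26, Nr1h3 -0.0301 to 0.17), in 5/6 Nx-HPi-Hp against Sham (Lss -0.0417 to 0.0771, Hmgcs1 -0.0105 to 0.29) and in 5/6 Nx-HPi-Hp against 5/6 Nx-LPi-Lp (Srebf2 -0.25 to 0.0479).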
